A study of Mus musculus with 15 samples.

Results

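The proteasome genes of the developing mouse kidney were followed over 3 ages on Illumina MouseRef-8 bead arrays, on which 1 RNA sample is read per array. Members were the genes whose symbol starts with Psma, Psmb, Psmc, Psmd, Psme, Psmf or Psmg and a number. The rule found 64 probes of 47 genes, out of 15967 genes with a symbol on the table, and the brightest probe stood for each gene. Of the 47 genes, 44 passed a filter on dim probes and were among the 9531 genes tested. The other members, Psma6, Psmg4 and Psmb11, had no age with a mean above 6.22 log2, the median of all values. A pair of the members are not proteasome subunits but carry the symbol as binding partners: Psmc3ip, which acts with recombinases in meiosis, and Psme3ip1, which binds the nuclear activator Psme3. Without them 45 members remain, of which 42 were tested.

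The RNA came from whole kidneys of untreated Balb/c mice, with 5 arrays at embryonic day 16 (E16d), 5 at postnatal day 1 (PN1d) and 5 at postnatal day 7 (PN7d). All mice were of that 1 strain, and no transgene or drug was used. The methods speak of biological triplicates for the arrays, while the paper's results and the labels give 5 per age, and the labels were followed. No source used here tells whether a sample was 1 animal or several pooled, so the p-values cover only the spread between samples, which may be technical. Values are log2 intensities as quantile-normalized by the authors, and the number of arrays limits the precision. Brightness differs between probes for technical reasons, so each gene is compared only with itself between ages. In bulk kidney, fewer cells of a type and less RNA per cell cannot be told apart. Kidney markers were present, with 10 of 11 above the filter, and most rose with age. At PN7d against E16d 8 of 10 were higher (against 32.3% of all genes tested), led by Kap (log2 fold change 5.08) and Umod (3.55), and 2 were lower (against 32.2%).

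The proteasome degrades proteins that carry ubiquitin chains. Its barrel, the 20S core, has outer rings of alpha subunits and inner rings of beta subunits, and the catalytic sites lie on Psmb5 (chymotrypsin-like), Psmb6 (caspase-like) and Psmb7 (trypsin-like). Under interferon, Psmb8, Psmb9 and Psmb10 take the places of Psmb5, Psmb6 and Psmb7 and form the immunoproteasome, which makes peptides for MHC class I molecules. The 19S cap recognises, unfolds and feeds in the substrate: a base with ATPases (Psmc genes) carries a lid (most Psmd genes) with the deubiquitinase Psmd14. Other activators open the barrel without ATP, among them PA28, made of Psme1 and Psme2, and PA200, which is Psme4. Dedicated chaperones build each part.

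The promoters of some members are shown as RefSeq gives them on GRCm38.p6, each from 250 bases before to 50 bases after the gene's start. They were picked for the pairs of catalytic subunits and for PA28, and most members whose levels separated with age are not shown. The table held promoters of 41 of the 47 members, and none for Psmb7. Psmb8 and Psmb9 are shown with Psmb5 and Psmb6, whose places they take, and Psme1 is shown with Psme2. Psmb8 lies at chr17:34197945-34198244 on the plus strand, Psmb5 at chr14:54617946-54618245 on the minus strand, Psmb9 at chr17:34187281-34187580 on the minus strand and Psmb6 at chr11:70525107-70525406 on the plus strand. Psme1 lies at chr14:55578244-55578543 on the plus strand and Psme2 at chr14:55591052-55591351 on the minus strand. Capitals mark matches, on either strand, to TGACNNNGC (the antioxidant response element, bound by Nfe2l1 and Nfe2l2), GAAANNGAA (a core of the interferon response element), TTCNNNGAA (the gamma-activated site, bound by STAT proteins) and CCAAT (the CCAAT box). No matches of different motifs overlapped in the promoters shown.
Psmb8: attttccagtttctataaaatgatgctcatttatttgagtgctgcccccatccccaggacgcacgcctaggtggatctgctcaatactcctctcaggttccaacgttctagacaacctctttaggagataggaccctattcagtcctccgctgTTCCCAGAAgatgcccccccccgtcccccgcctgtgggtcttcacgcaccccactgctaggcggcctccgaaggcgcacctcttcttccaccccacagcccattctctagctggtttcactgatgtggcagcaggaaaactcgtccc
Psmb5: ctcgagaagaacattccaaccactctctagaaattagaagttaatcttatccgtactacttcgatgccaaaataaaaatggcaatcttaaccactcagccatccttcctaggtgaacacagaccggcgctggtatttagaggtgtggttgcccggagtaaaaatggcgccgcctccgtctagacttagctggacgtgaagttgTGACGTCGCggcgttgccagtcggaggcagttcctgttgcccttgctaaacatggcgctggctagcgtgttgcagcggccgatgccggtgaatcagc
Psmb9: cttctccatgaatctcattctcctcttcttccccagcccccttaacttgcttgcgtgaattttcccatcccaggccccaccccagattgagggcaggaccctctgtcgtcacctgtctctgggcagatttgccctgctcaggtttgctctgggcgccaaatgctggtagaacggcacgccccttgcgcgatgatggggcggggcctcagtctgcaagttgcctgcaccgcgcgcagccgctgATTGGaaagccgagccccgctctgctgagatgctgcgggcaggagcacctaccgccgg
Psmb6: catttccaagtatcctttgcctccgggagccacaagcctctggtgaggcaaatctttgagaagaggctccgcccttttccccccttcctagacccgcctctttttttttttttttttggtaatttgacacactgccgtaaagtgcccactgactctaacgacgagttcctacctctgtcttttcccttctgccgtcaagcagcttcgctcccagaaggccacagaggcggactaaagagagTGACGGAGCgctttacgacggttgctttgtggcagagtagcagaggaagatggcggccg
Psme1: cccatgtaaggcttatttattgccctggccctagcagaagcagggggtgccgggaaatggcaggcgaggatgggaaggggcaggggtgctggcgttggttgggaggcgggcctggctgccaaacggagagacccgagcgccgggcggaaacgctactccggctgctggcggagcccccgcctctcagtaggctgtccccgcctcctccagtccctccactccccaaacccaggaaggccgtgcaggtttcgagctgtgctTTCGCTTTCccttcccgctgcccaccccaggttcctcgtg
Psme2: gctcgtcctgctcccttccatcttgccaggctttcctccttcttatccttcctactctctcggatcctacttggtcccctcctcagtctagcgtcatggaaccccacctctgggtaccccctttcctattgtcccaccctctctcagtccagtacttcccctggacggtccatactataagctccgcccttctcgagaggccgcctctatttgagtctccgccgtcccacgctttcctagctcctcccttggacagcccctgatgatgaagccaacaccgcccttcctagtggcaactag

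Psmb5 and Psmb6 each carried 1 match to TGACNNNGC, Psmb8 1 match to TTCNNNGAA, Psme1 1 match to GAAANNGAA just after its start and Psmb9 1 match to CCAAT, while Psme2 carried none of the 4 motifs. Such matches were not particular to proteasome genes. TGACNNNGC was found at 6 of 41 members (14.6%), against 14.0% of 27025 genes, and CCAAT at 16 (39.0%), against 41.1%. TTCNNNGAA was found at 3 members (7.32%), against 9.55%, and GAAANNGAA at 7 (17.1%), against 9.76%. A match is a description of the letters and not evidence of a bound site. In the same assembly Psmb9 and Psmb8 flank Tap1, a subunit of the peptide transporter of MHC class I loading, and Psme1 and Psme2 lie 5913 bases apart.

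Most proteasome genes were lower in the postnatal kidney than in the embryonic kidney. At PN7d against E16d, 32 of 44 were lower and 6 were higher at an adjusted p under 0.05 (limma, adjusted over all genes tested), where 32.2% of all genes tested were lower and 32.3% higher. One of the 6, Psmb8, had passed the filter only through its PN7d arrays, and its call could only be an increase. The median log2 fold change of the members was -0.31, against 0.0016 over all genes tested. At PN1d against E16d, 25 members were lower and 1 was higher, where 24.9% of all genes were lower and 21.4% higher, and the median was -0.20, against -0.016 over all genes. The 2 comparisons share the E16d arrays. Between the postnatal ages, 11 members were lower and 4 higher at PN7d than at PN1d, where 21.2% of all genes were lower and 24.1% higher, and the median was -0.11, against 0.0082 over all genes. The members' share of lower calls between the postnatal ages (25.0%) was thus near that of all genes, while at PN7d against E16d it was 72.7%.

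At PN7d against E16d, 7 of 44 members (15.9%) were called lower by more than 1.5-fold, against 9.48% of all genes, and 2 (4.55%), Psmb1 and Psmb9, were called higher by more than that, against 10.9%. Of the members' log2 fold changes, 35 of 44 lay below 0, against 49.8% over all genes. For 25 of 44 members every PN7d array lay below every E16d array, against 24.8% of all genes. For 6 of 44 every PN7d array lay above, against 25.3%. At PN1d against E16d, 17 of 44 members had all PN1d arrays below all E16d arrays, against 19.3% of all genes, and 1 of 44 had all above, against 17.6%. At PN7d against PN1d, 4 of 44 members had all PN7d arrays below (against 13.4% of all genes) and 4 of 44 had all above (against 14.4%). Leaving out Psmc3ip and Psme3ip1, 30 of 42 were lower and 6 higher at PN7d than at E16d.

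**Figure D1:**
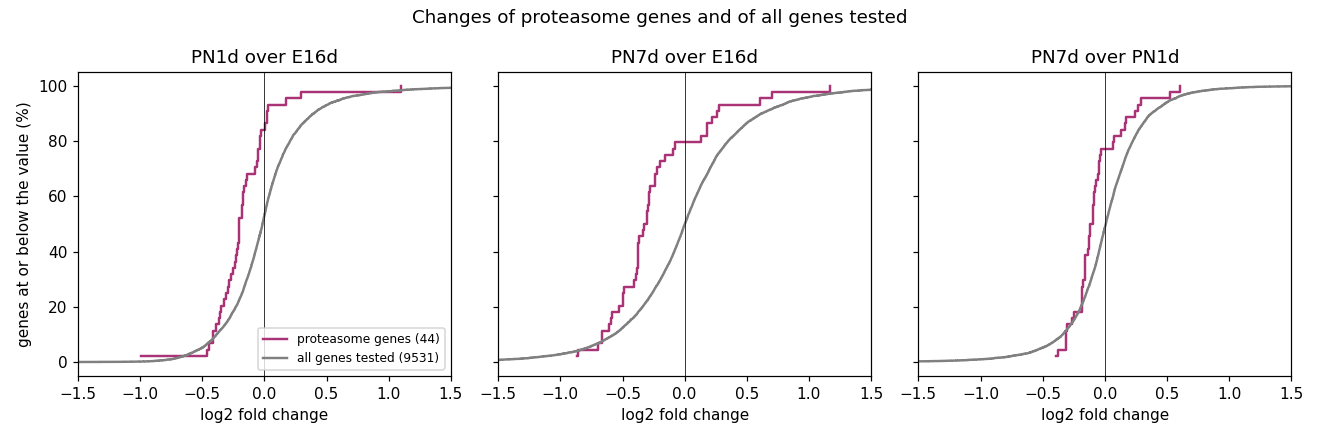
Share of genes (y axis, %) at or below each log2 fold change (x axis) for the 44 proteasome genes (purple) and all 9531 genes tested (grey), in the 3 comparisons of ages. The purple curve lies left of the grey one over most of its range, with medians of -0.20 (PN1d over E16d), -0.31 (PN7d over E16d) and -0.11 (PN7d over PN1d), and crosses it at both ends.

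Genes of other systems moved at the same ages. Over all genes tested, 32.3% were higher and 32.2% lower at PN7d than at E16d, and 21.4% higher and 24.9% lower at PN1d. All 13 cell division markers tested were lower at PN7d than at E16d (median log2 fold change -1.71), and their summed intensity ran from 3071 to 5319 at PN7d and from 13852 to 14972 at E16d, with Ccnb2, Bub1 and Ect2 not above the median of all values on any array. The part of dividing cells in the proteasome decreases was not tested. The 4 brown fat markers were higher at PN7d, led by Ucp1 (log2 fold change 4.68). All 4 lay under the median of all values on every E16d and PN1d array and passed the filter only through PN7d. Their calls were thus not independent of the filter, and the size for Ucp1 is not a measured one. Their summed intensity ran from 243 to 252 at E16d, from 239 to 253 at PN1d and from 618 to 7129 at PN7d. With their level on each array as a covariate the median of the members at PN7d against E16d was -0.36. Liver markers were higher at PN1d for 5 of 8 genes, with a summed intensity from 1896 to 12539 at PN1d and from 1554 to 1999 at E16d, and Alb, Fgb and Apoh were not above the median on any array. Of the erythroid markers 3 of 5 were lower at PN1d, with a sum from 12528 to 14428 at PN1d and from 14610 to 16607 at E16d, Epb42 not being above the median on any array. The part of liver and blood cell RNA in the members' values was not tested.

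**Figure D2:**
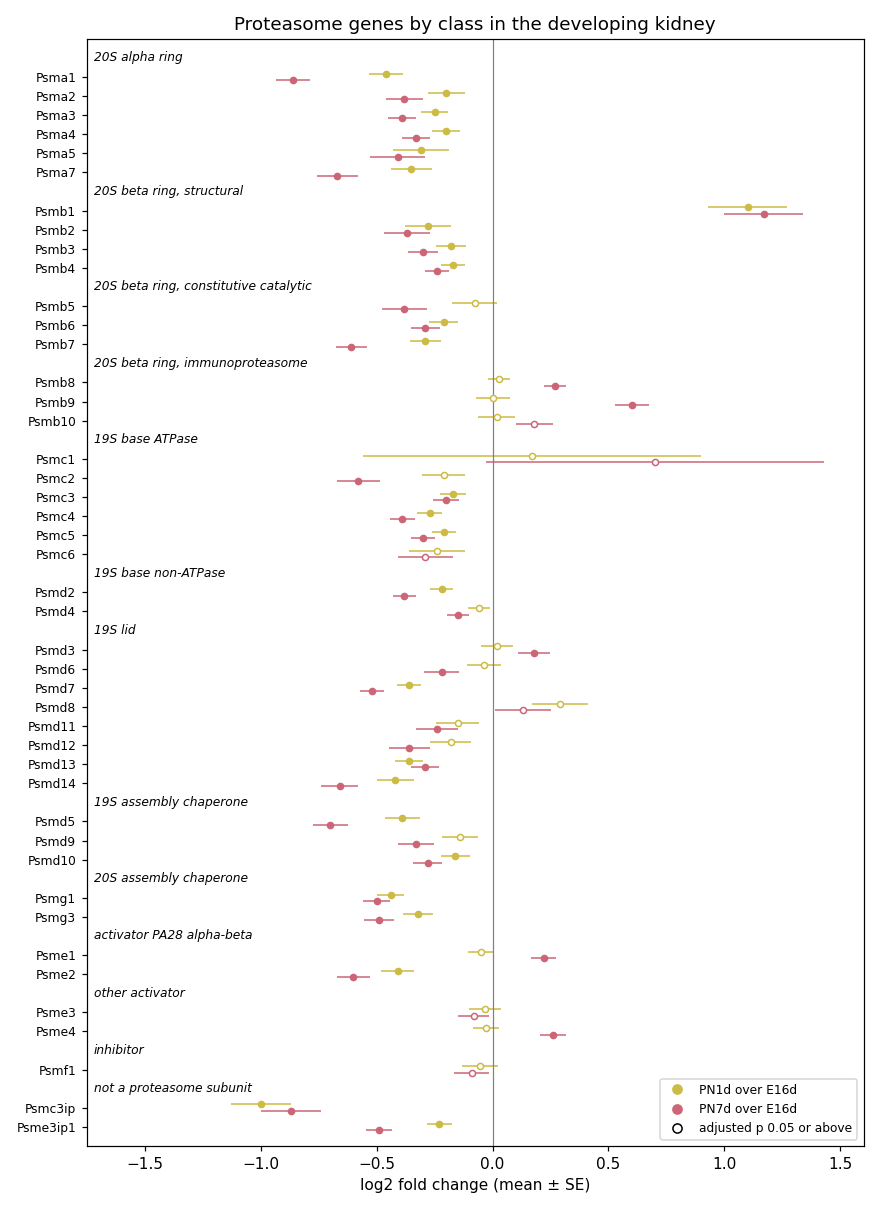
Log2 fold changes (x axis, mean ± SE) of the 44 proteasome genes tested, grouped by class (rows), for PN1d over E16d (yellow) and PN7d over E16d (red), with open circles where the adjusted p was 0.05 or above. The 6 alpha ring genes all lie left of 0, Psmb1 stands at 1.10 and 1.17, and the immunoproteasome genes lie at or right of 0.

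The alpha subunits form the outer rings of the core and its gate. All 6 tested (Psma1 to Psma5 and Psma7) were lower at both postnatal ages than at E16d, where 32.2% (PN7d) and 24.9% (PN1d) of all genes tested were lower. Their log2 fold changes ran from -0.86 to -0.33 at PN7d and from -0.46 to -0.20 at PN1d. Psma1 moved furthest. On the 5 arrays of each age it measured 10.71, 10.54, 10.62, 10.62 and 10.66 log2 at E16d, 10.27, 10.32, 9.86, 10.18 and 10.24 at PN1d, and 9.89, 9.78, 9.71, 9.71 and 9.80 at PN7d. Every postnatal array lay below every E16d array, and the 2 postnatal ages overlapped only through the lowest PN1d array. Psma1 fell by 0.86 ± 0.073 (SE) at PN7d against E16d (adjusted p = 3.25e-08, limma) and by 0.40 against PN1d (adjusted p = 0.00038).

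Psma7, another alpha subunit, measured 10.95, 10.87, 10.81, 10.79 and 10.80 log2 at E16d, 10.67, 10.69, 10.33, 10.39 and 10.38 at PN1d, and 10.32, 10.39, 9.99 and 10.18 on PN7d replicates 1, 2, 3 and 5, with PN7d replicate 4 just above replicate 3. The postnatal ages overlapped with each other but not with E16d. Psma7 fell by 0.67 ± 0.088 (SE) at PN7d against E16d (adjusted p = 4.81e-06, limma) and by 0.31 against PN1d (adjusted p = 0.00808). The fall against PN1d was not called with the brown fat level as a covariate (adjusted p = 0.083) or by the methods' t-test (adjusted p = 0.0572). Psma6 stayed at 6.01 to 6.04 log2 as the mean of each age, under the median of all values on all 15 arrays, so its probe gave no measured level.

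Among the non-catalytic beta subunits, Psmb1 moved opposite to the other 3. Psmb2, Psmb3 and Psmb4 were lower at PN7d than at E16d, with log2 fold changes from -0.37 to -0.24. Psmb1, read by 1 probe, measured 8.71, 9.28, 8.33, 8.49 and 8.63 log2 at E16d, 10.05, 9.73, 9.64, 9.68 and 9.83 at PN1d, and 9.81, 10.32, 9.44, 10.01 and 9.70 at PN7d. All 10 postnatal arrays lay above all E16d arrays, while PN1d and PN7d overlapped. The log2 fold change was 1.17 ± 0.17 (SE) at PN7d against E16d (2.25-fold, adjusted p = 1.09e-05, limma) and 1.10 ± 0.17 at PN1d against E16d (2.14-fold, adjusted p = 4.6e-05). Psmb1 was the only member called higher at PN1d, and its difference between PN7d and PN1d (0.073, adjusted p = 0.747) was not called. Each beta subunit occurs once in each inner ring of the barrel.

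The constitutive catalytic subunits were all lower at PN7d than at E16d, where 32.2% of all genes tested were lower. Psmb5 measured 10.08, 10.19, 10.18, 10.19 and 10.19 log2 at E16d, 10.33, 10.14, 10.06, 10.02 and 9.91 at PN1d, and 10.02, 10.07, 9.61, 9.58 and 9.67 at PN7d. All PN7d arrays lay below all E16d arrays, with 2 of the 5 PN7d arrays close to the lowest E16d array and the other 3 further below. Psmb5 fell by 0.38 ± 0.097 (SE) at PN7d against E16d (adjusted p = 0.00262, limma), and its change at PN1d was not called (-0.076, adjusted p = 0.553). Its fall of PN7d against PN1d (by 0.30, adjusted p = 0.0179) was not called without PN1d replicate 1 (by 0.24, adjusted p = 0.0539) or without PN7d replicate 3 (by 0.26, adjusted p = 0.0511). Nor was it with the brown fat covariate (adjusted p = 0.113) or by the methods' t-test (adjusted p = 0.0976).

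Psmb6 measured 12.13, 12.04, 12.18, 12.06 and 12.23 log2 at E16d, 11.98, 11.96, 11.86, 11.92 and 11.87 at PN1d, and 11.90, 12.05, 11.75, 11.79 and 11.70 at PN7d. PN1d lay below E16d on all arrays, and 1 PN7d array reached into the E16d range. Psmb6 fell by 0.29 ± 0.063 (SE) at PN7d against E16d (adjusted p = 0.000694, limma) and by 0.21 at PN1d (adjusted p = 0.0115).

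Psmb7 measured 11.80, 11.64, 11.61, 11.71 and 11.59 log2 at E16d, 11.48, 11.48, 11.34, 11.40 and 11.19 at PN1d, and 11.22, 11.10, 11.05, 10.93 and 11.03 at PN7d. The levels stepped down at each age, and only the lowest PN1d array overlapped with PN7d. Psmb7 fell by 0.61 ± 0.067 (SE) at PN7d against E16d (adjusted p = 6.68e-07, limma) and by 0.29 at PN1d (adjusted p = 0.00176). Its second probe changed by -0.43 at PN7d and by -0.072 at PN1d, and with that probe the call at PN1d was lost (adjusted p = 0.582).

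The immunoproteasome subunits did not follow. At PN7d against E16d Psmb9 was called higher, Psmb10 was not called, and Psmb8 rested on a probe that passed the filter only at PN7d. At PN1d none of the 3 differed from E16d at the threshold (log2 fold changes from 0.00095 to 0.029). Psmb9, the counterpart of Psmb6, measured 6.53, 6.48, 6.51, 6.36 and 6.43 log2 at E16d, 6.51, 6.52, 6.32, 6.44 and 6.54 at PN1d, and 7.13, 7.33, 6.91, 7.02 and 6.94 at PN7d. E16d and PN1d covered nearly the same range, and all PN7d arrays lay above both. The log2 fold change was 0.60 ± 0.073 (SE) at PN7d against E16d (1.52-fold, adjusted p = 1.78e-06, limma) and 0.60 against PN1d (adjusted p = 6.34e-06). No background subtraction was visible in these values, and background left in would understate the change of dim genes. After a background correction the log2 fold change was 0.90. The PN7d array with the highest Psmb9 (7.33) had the lowest Ucp1 of that age (8.07 log2). The PN7d array with the highest Ucp1 (12.17) had the next highest Psmb9 (7.13). With the brown fat covariate the log2 fold change was 0.64 (adjusted p = 0.000123, limma). That covariate varied almost only among the PN7d arrays, and the part of brown fat in Psmb9 was not tested.

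Psmb8, the counterpart of Psmb5, was near the limit of the arrays. It measured 6.09, 6.01, 5.90, 5.97 and 6.03 log2 at E16d, 6.01, 6.03, 5.96, 6.04 and 6.11 at PN1d, and 6.20, 6.28, 6.36, 6.26 and 6.27 at PN7d. All arrays of E16d and PN1d lay under the median of all values, 4 of the 5 PN7d arrays lay above it, and PN7d did not overlap with either age. It passed the filter only through PN7d, the age where it was high, so its test in the filtered fit (adjusted p = 8.83e-05 at PN7d against E16d, limma) was not independent of the filter. In the fit with no filter the adjusted p was 3.75e-05 at PN7d against E16d and 0.00028 against PN1d. Taken against the median of all values as the floor, Psmb8 was at least 1.04-fold higher in PN7d kidneys.

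Psmb10, the counterpart of Psmb7, measured 8.22, 8.22, 8.12, 8.25 and 7.97 log2 at E16d, 8.33, 8.14, 8.31, 7.96 and 8.12 at PN1d, and 8.45, 8.43, 8.38, 8.12 and 8.32 at PN7d. The 3 ages overlapped. Its log2 fold change at PN7d against E16d was 0.18 ± 0.081 (SE, adjusted p = 0.0594, limma), which missed the threshold. Without PN7d replicate 4, the lowest of its age, it was 0.24 (adjusted p = 0.0139), and with the replicate block it was also called (adjusted p = 0.0395). Its second probe gave 0.13. At PN7d against PN1d its log2 fold change was 0.17 (adjusted p = 0.108). There it was called with the second probe (0.22, adjusted p = 0.0393), the mean of both probes (0.19, adjusted p = 0.0366) or without PN7d replicate 4 (0.22, adjusted p = 0.0306). Psmb11, the catalytic subunit of thymic epithelium, was under the median of all values on all 15 arrays.

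**Figure D3:**
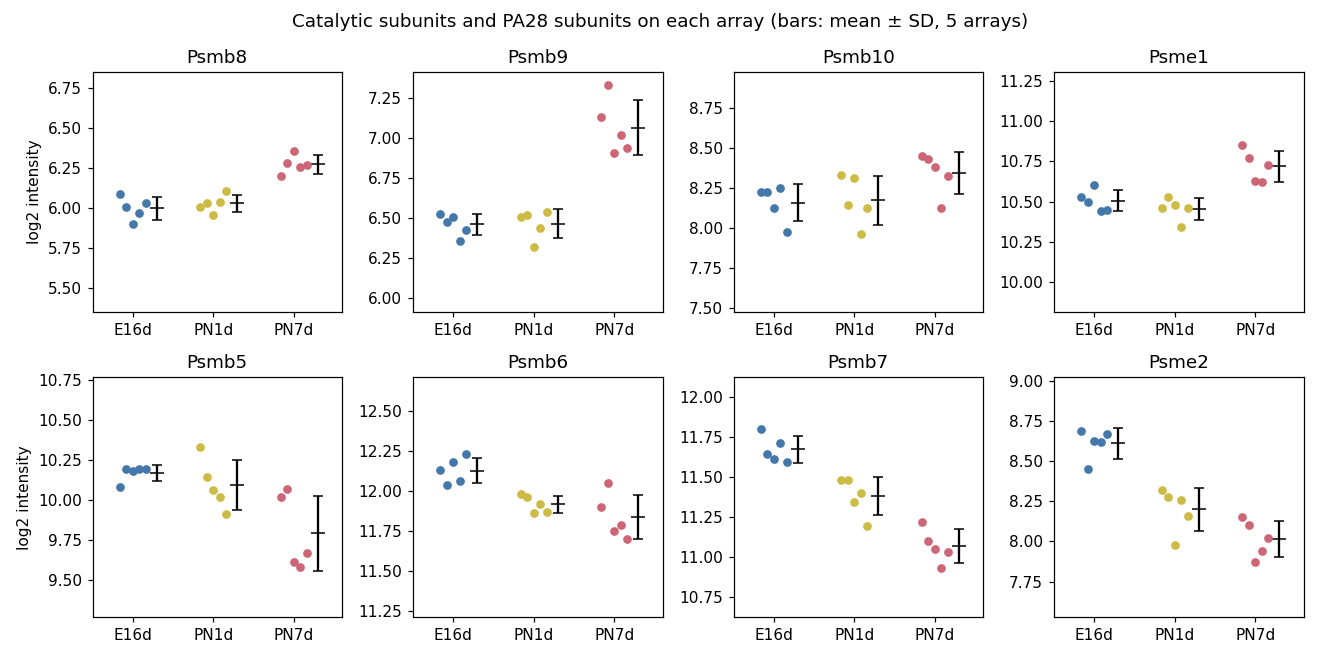
Log2 intensities (y axis, each panel spanning the same 1.5 log2 units) on each of 5 arrays at E16d, PN1d and PN7d (x axis) for the immunoproteasome subunits Psmb8, Psmb9 and Psmb10 and the activator subunit Psme1 in the top row, with Psmb5, Psmb6, Psmb7 and Psme2 below them. Bars give mean ± SD, and Psmb9 at PN7d (6.91 to 7.33) lies above its E16d arrays (6.36 to 6.53) while Psmb7 at PN7d (10.93 to 11.22) lies below its own (11.59 to 11.80).

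The course of each pair was then measured within the arrays, as the log2 value of the immunoproteasome subunit minus that of its constitutive counterpart. The level of this difference depends on both probes and carries no meaning by itself, but probe brightness cancels from its change between ages. A shift can come from either gene. At PN1d against E16d the immunoproteasome genes changed by 0.029 or less and the constitutive ones by -0.076 to -0.29. Psmb10 was not called by itself in any comparison, except under the alternatives given above. All 3 differences were higher at PN7d than at E16d, and no PN7d array overlapped with an E16d array. For Psmb9 minus Psmb6 the difference averaged -4.77 ± 0.046 at PN7d and -5.67 ± 0.092 at E16d (SD, n = 5 each), a shift of 0.89 ± 0.046 (SE, p = 0.00794, exact two-sided permutation test, adjusted p = 0.0119 over 9 tests). For Psmb10 minus Psmb7 it averaged -2.73 ± 0.064 at PN7d and -3.52 ± 0.084 at E16d, a shift of 0.79 ± 0.047 (p = 0.00794, exact permutation test, adjusted p = 0.0119). For Psmb8 minus Psmb5 it averaged -3.52 ± 0.27 at PN7d and -4.17 ± 0.11 at E16d, a shift of 0.65 ± 0.13 (p = 0.00794, exact permutation test, adjusted p = 0.0119). Psmb8 was under the median of all values on every E16d and PN1d array, so this size is not a measured one. It passed the filter only through PN7d, so the test of this pair was not independent of the filter. Psmb5 by itself changed by -0.38. With Psmb8 raised to that median, a setting chosen after seeing the data, the shift was 0.44 (adjusted p = 0.0119, exact permutation test). A p of 0.00794 is the smallest that 5 arrays against 5 can give.

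The single arrays show how close the shifts were. Psmb9 minus Psmb6 ran from -5.80 to -5.56 on the E16d arrays, from -5.54 to -5.34 on the PN1d arrays and from -4.85 to -4.72 on the PN7d arrays, so that the 3 ages did not overlap. Its shift was 0.21 ± 0.053 at PN1d against E16d (p = 0.00794, exact permutation test, adjusted p = 0.0119) and 0.68 ± 0.039 at PN7d against PN1d (p = 0.00794, exact permutation test, adjusted p = 0.0119). Psmb10 minus Psmb7 shifted by 0.31 ± 0.09 at PN1d against E16d (p = 0.0159, exact permutation test, adjusted p = 0.0179) and by 0.48 ± 0.086 at PN7d against PN1d (adjusted p = 0.0119, exact permutation test). With the second probe of Psmb7 the shift at PN1d was 0.089 (adjusted p = 0.54) and was not called.

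Psmb8 minus Psmb5 did not differ at the threshold between PN1d and E16d, with a shift of 0.11 ± 0.098 (SE, p = 0.317, exact permutation test, adjusted p = 0.317). It was higher at PN7d than at PN1d by 0.55 ± 0.15 (adjusted p = 0.0179, exact permutation test), although 1 PN1d array (-3.80) lay above 1 PN7d array (-3.82). With Psmb8 raised to the median of all values this shift was 0.36 (adjusted p = 0.0536, exact permutation test) and was not called. Its PN7d arrays formed 2 levels, -3.82 and -3.79 on replicates 1 and 2 and -3.25 to -3.40 on the other 3, as Psmb5 did.

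**Figure D4:**
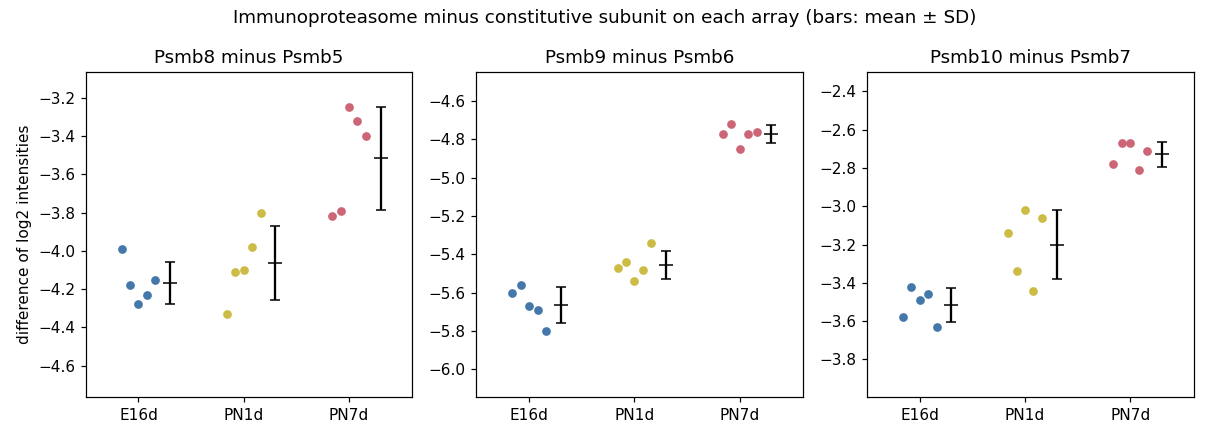
Difference of log2 intensities (y axis) between each immunoproteasome subunit and its constitutive counterpart on each of 5 arrays at E16d, PN1d and PN7d (x axis), with bars for mean ± SD. In all 3 panels the PN7d arrays lie above the E16d arrays, by 0.65 (Psmb8 minus Psmb5, with Psmb8 at the limit of the arrays at E16d and PN1d), 0.89 (Psmb9 minus Psmb6) and 0.79 (Psmb10 minus Psmb7) on average.

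The subunits of the PA28 activator, which caps the core in place of 19S and is induced by interferon together with the immunoproteasome, went opposite ways. Psme1 measured 10.53, 10.50, 10.60, 10.44 and 10.45 log2 at E16d, 10.46, 10.53, 10.48, 10.34 and 10.46 at PN1d, and 10.85, 10.77, 10.63, 10.62 and 10.73 at PN7d. All PN7d arrays lay above the arrays of both earlier ages. Its log2 fold change was 0.22 ± 0.055 (SE) at PN7d against E16d (adjusted p = 0.00234, limma) and 0.27 against PN1d (adjusted p = 0.000912). Its second probe gave 0.39 at PN7d against E16d and 0.18 against PN1d, where the call was lost (adjusted p = 0.28). With the brown fat covariate its log2 fold change at PN7d against E16d was 0.17 (adjusted p = 0.0859).

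Psme2 measured 8.69, 8.45, 8.63, 8.62 and 8.67 log2 at E16d, 8.32, 8.28, 7.98, 8.26 and 8.16 at PN1d, and 8.15, 8.10, 7.87, 7.94 and 8.02 at PN7d. Both postnatal ages lay wholly below E16d and overlapped with each other. Psme2 fell by 0.60 ± 0.071 (SE) at PN7d against E16d (adjusted p = 1.56e-06, limma) and by 0.41 at PN1d (adjusted p = 0.000159). Its fall of PN7d against PN1d (by 0.18, adjusted p = 0.0443) was not called without any of 7 arrays in turn: PN1d replicates 1, 2, 4 and 5 (by 0.15, 0.17, 0.17 and 0.19) and PN7d replicates 3, 4 and 5 (by 0.15, 0.17 and 0.18). It was also not called in 5 other alternatives, with adjusted p from 0.0546 (mean-variance trend) to 0.101 (the methods' t-test), so that it was lost in 12 of 22. The mouse genome holds a copy, Psme2b, which has no probe on the table, and whether the probe of Psme2 also reads it was not tested.

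Psme4, the PA200 activator known for acetylated histones, measured 8.80, 8.90, 8.73, 8.80 and 8.94 log2 at E16d, 8.82, 8.89, 8.90, 8.67 and 8.75 at PN1d, and 9.03, 9.12, 9.16, 9.11 and 9.04 at PN7d. PN7d lay above both earlier ages on every array. Its log2 fold change was 0.26 ± 0.056 (SE) at PN7d against E16d (adjusted p = 0.000639, limma) and 0.29 against PN1d (adjusted p = 0.000549). The nuclear activator Psme3 (-0.082, adjusted p = 0.309) and the inhibitor Psmf1 (-0.09, adjusted p = 0.311) were not called at PN7d against E16d. Psme3ip1, the partner of Psme3, was lower (by 0.49, adjusted p = 7.36e-07).

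Of the 16 tested subunits of the 19S cap, 12 were lower (against 32.2% of all genes tested) and 1 was higher (against 32.3%) at PN7d than at E16d. The median log2 fold change was -0.29, and 7 were lower at PN1d (against 24.9% of all genes). Of the 6 ATPases of the base 4 were lower at PN7d. Psmc2, an ATPase, measured 8.45, 8.49, 8.80, 8.58 and 8.96 log2 at E16d, 8.43, 8.26, 8.40, 8.64 and 8.50 at PN1d, and 7.99, 8.08, 8.01, 8.06 and 8.23 at PN7d. PN7d lay below both earlier ages, which overlapped. Psmc2 fell by 0.58 ± 0.093 (SE) at PN7d against E16d (adjusted p = 3.77e-05, limma) and by 0.38 against PN1d (adjusted p = 0.00361), the second not being called with the brown fat covariate (by 0.35, adjusted p = 0.0691). Its change at PN1d against E16d (-0.21, adjusted p = 0.081) was called without PN1d replicate 4 (-0.25, adjusted p = 0.0406) or without E16d replicate 1 (-0.26, adjusted p = 0.0352).

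Both tested receptor and scaffold subunits of the base were lower at PN7d than at E16d, where 32.2% of all genes tested were lower. Psmd4, a ubiquitin receptor, fell by 0.15 (adjusted p = 0.00832, limma). Psmd2 lay under the median of all values on all 5 PN7d arrays and was at least 1.21-fold lower at PN7d than at E16d (adjusted p = 3.14e-06). In the lid, 6 of 8 subunits were lower (against 32.2% of all genes tested). They were led by the deubiquitinase Psmd14 (by 0.66, adjusted p = 1.45e-06, limma) and its partner Psmd7 (by 0.52, adjusted p = 2.24e-07). Second probes gave larger decreases at PN7d for Psmd7 (-0.80) and Psmd13 (-0.89, against -0.29 with the brighter probe), and a smaller one for the ATPase Psmc4 (-0.12, against -0.39), whose second probe gave 0.15 at PN1d, against -0.27 with the brighter probe.

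Psmd3, a lid subunit chosen for mention after its values were seen, was called higher at PN7d than at E16d (log2 fold change 0.18 ± 0.069 SE, adjusted p = 0.0291, limma). It measured 12.49, 12.43, 12.45, 12.84 and 12.50 log2 at PN7d and 12.30, 12.37, 12.42, 12.40 and 12.29 at E16d. The groups did not overlap, but 1 PN7d array stood above the rest. Without that array, PN7d replicate 4, the log2 fold change was 0.11 (adjusted p = 0.0682), and it was not called either without E16d replicate 1 (0.17, adjusted p = 0.0617) or E16d replicate 5 (0.17, adjusted p = 0.0652), nor with the brown fat covariate (0.11, adjusted p = 0.394).

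The ATPase gene Psmc1 was singled out after its values were seen, because its arrays fell into 2 levels within each age. It measured 8.63, 7.86, 5.99, 5.98 and 5.96 log2 at E16d, 8.54, 8.59, 5.88, 6.33 and 5.94 at PN1d, and 8.40, 8.90, 8.34, 6.12 and 6.16 at PN7d. Over the 15 arrays, 7 lay between 7.86 and 8.90 and 8 between 5.88 and 6.33, and each age held both levels. Replicates 1 and 2 were high and replicates 4 and 5 low at all 3 ages, and replicate 3 was high at PN7d only. Its SD within ages was 1.33, the 4th largest of the 9531 genes tested, where the median gene had 0.111 and the next proteasome gene 0.298. No age differed at the threshold (adjusted p = 0.414 at PN7d against E16d, limma). Psmd8, a lid subunit also chosen after its values were seen, showed a smaller split at E16d, with 10.87 and 10.81 log2 on replicates 1 and 2 and 11.51, 11.53 and 11.33 on the other 3. At PN1d it measured 11.64, 11.53, 11.43, 11.52 and 11.39. Its log2 fold change at PN1d against E16d was 0.29 (adjusted p = 0.062, limma), and it was called without E16d replicate 3 (0.37, adjusted p = 0.0233) or without E16d replicate 4 (0.37, adjusted p = 0.02).

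**Figure D5:**
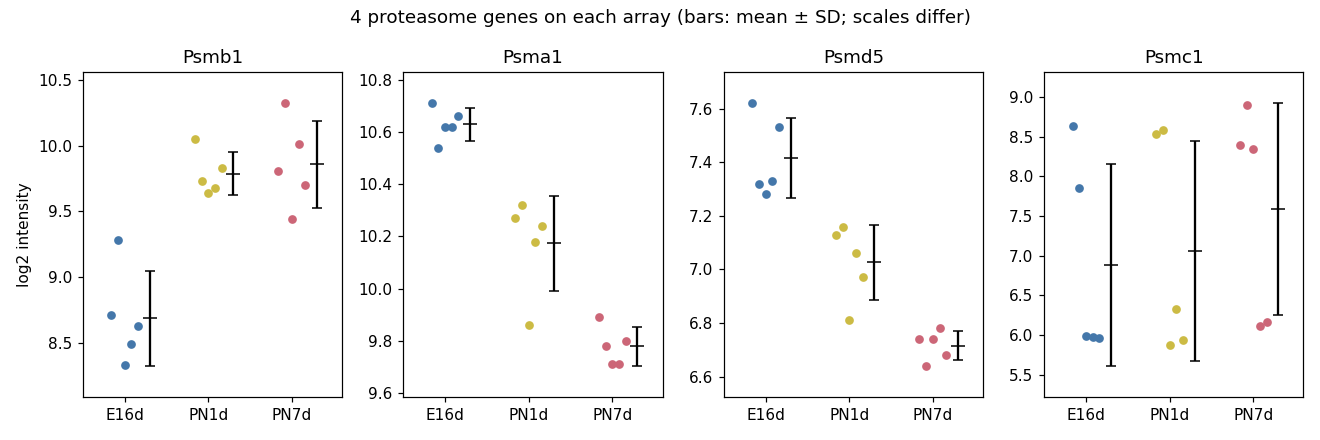
Log2 intensities (y axes, with a scale of their own for each gene) on each of 5 arrays at E16d, PN1d and PN7d (x axis) for Psmb1, Psma1, Psmd5 and Psmc1, with bars for mean ± SD. Psmb1 is higher and Psma1 and Psmd5 are lower at both postnatal ages than at E16d, while Psmc1 has arrays near 6 and near 8.5 at every age.

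The assembly chaperones were lower as a group. All 5 tested, for both the 20S and the 19S part, were lower at PN7d than at E16d (against 32.2% of all genes tested), with log2 fold changes from -0.70 to -0.28. At PN1d 4 of 5 were lower (against 24.9% of all genes). Psmd5, which holds ATPases of the base during assembly, measured 7.62, 7.32, 7.28, 7.33 and 7.53 log2 at E16d, 7.13, 7.16, 6.81, 7.06 and 6.97 at PN1d, and 6.74, 6.64, 6.74, 6.78 and 6.68 at PN7d. The 3 ages did not overlap. Psmd5 fell by 0.70 ± 0.075 (SE) at PN7d against E16d (adjusted p = 4.43e-07, limma), by 0.39 at PN1d against E16d (adjusted p = 0.000426) and by 0.31 at PN7d against PN1d (adjusted p = 0.00302).

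Psmg1, which guides the alpha ring together, measured 9.89, 9.82, 9.80, 9.75 and 9.99 log2 at E16d, 9.52, 9.41, 9.35, 9.45 and 9.32 at PN1d, and 9.46, 9.34, 9.26, 9.28 and 9.42 at PN7d. Both postnatal ages lay below E16d and covered nearly the same range. Psmg1 fell by 0.44 ± 0.058 (SE) at PN1d against E16d (adjusted p = 1.13e-05, limma) and by 0.50 at PN7d (adjusted p = 1.18e-06). Psmg4 had no age with a mean above the median of all values.

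The largest decrease at PN1d among the symbols was that of Psmc3ip, which is no proteasome subunit. It measured 9.33, 9.51, 9.46, 9.52 and 9.38 log2 at E16d, 8.62, 8.31, 8.38, 8.52 and 8.40 at PN1d, and 8.13, 8.98, 8.71, 8.85 and 8.20 at PN7d. Both postnatal ages lay below E16d, and the PN7d arrays spread more widely than the others. Psmc3ip fell by 1.00 ± 0.13 (SE) at PN1d (adjusted p = 1.45e-05, limma) and by 0.87 at PN7d against E16d (adjusted p = 2.65e-05). With the brown fat covariate its fall at PN7d against E16d was by 0.52 (adjusted p = 0.0109), and its difference between PN7d and PN1d, 0.13 without the covariate (adjusted p = 0.468), was 0.47 (adjusted p = 0.032).

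Partners of the proteasome that do not carry the symbol were mostly lower as well. Of 12 tested, 8 were lower (against 32.2% of all genes tested) and 2 higher (against 32.3%) at PN7d than at E16d. At PN1d 8 were lower (against 24.9%) and none higher (against 21.4%). Pomp, the chaperone that matures the 20S core, fell by 0.67 at PN7d (adjusted p = 1.8e-08, limma), and the cap-bound deubiquitinases Uchl5 (by 0.52) and Usp14 (by 0.50) fell too. The thioredoxin-like Txnl1 (by 0.53), the segregase Vcp (by 0.35), the ligase Ube3c (by 0.31), the small lid subunit Sem1 (by 0.23) and the shuttle factor Ubqln1 (by 0.20) were the others. Nfe2l1, the transcription factor known to induce proteasome genes when degradation is blocked, was higher (log2 fold change 0.46, adjusted p = 8.07e-06), as was Ubqln4 (0.26, adjusted p = 0.00595). Ecpas (0.13, adjusted p = 0.0925) and Nfe2l2 (-0.18, adjusted p = 0.0848) were not called.

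Upstream of the proteasome, 17 of 20 tested ubiquitin-activating and ubiquitin-conjugating enzymes were lower at PN7d than at E16d and none was higher (median log2 fold change -0.40), where 32.2% of all genes tested were lower and 32.3% higher. The largest decreases were those of Ube2c (-1.26) and Ube2t (-0.85), which act in mitosis and in DNA repair. At PN1d against E16d 11 were lower (against 24.9% of all genes tested) and none higher (against 21.4%).

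Genes of MHC class I presentation, which load the peptides that the immunoproteasome makes, and of the interferon response were mostly higher at PN7d. At PN7d against E16d 8 of 14 tested genes were higher and 1 was lower (median log2 fold change 0.32), where 32.3% of all genes tested were higher and 32.2% lower. Among the higher ones, H2-D1 lay under the median of all values on every E16d and PN1d array, and Erap1 on every E16d array. They passed the filter only through later ages, so their calls were not independent of the filter. The increases were led by the peptide transporter subunit Tap2 (1.29 ± 0.075 SE, adjusted p = 2.86e-10, limma) and the MHC light chain B2m (0.83 ± 0.079, adjusted p = 1.07e-07). The gene called lower was Pdia3 (-0.61 ± 0.068, adjusted p = 7.71e-07), a chaperone of MHC loading that also serves glycoproteins in general. The class I heavy chain gene H2-K1 had a larger log2 fold change (-0.73) that was not called (adjusted p = 0.0967, limma). It measured 8.25, 5.92, 7.58, 6.06 and 5.93 log2 at PN7d, and 7.33 to 7.58 at E16d. At PN1d, where no immunoproteasome gene was called, 6 were higher (against 21.4% of all genes tested) and 1 was lower (against 24.9%). The higher ones included Erap1 and Ifit3, which lay under the median of all values on every E16d array, so the same limit holds for them. Tap1, between Psmb9 and Psmb8 on the chromosome, was under the median of all values on all 15 arrays, as were 5 other genes of the list.

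Leukocytes carry immunoproteasomes, and their markers were counted beside these results. Of 14 tested, 4 were higher and 1 was lower at PN7d than at E16d (median log2 fold change 0.034), where 32.3% of all genes tested were higher and 32.2% lower. Among them the MHC class II genes Cd74 (1.33) and H2-Ab1 (1.11) were higher, and the pan-leukocyte marker Ptprc was not called (-0.029, adjusted p = 0.615, limma). Ptprc lay under the median of all values on every PN7d array and on most E16d arrays. Its missing call therefore does not tell whether its level changed. Fcer1g, Itgam and H2-Aa were not above the median of all values on any array. The summed intensity of all 19 markers on the table ran from 2605 to 2990 at PN7d and from 2444 to 2612 at E16d. The part of leukocytes in the higher Psmb8 and Psmb9 was not tested.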

How the data were processed

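RNA from 15 whole kidney samples (5 per age) was hybridized to bead arrays. The deposited table holds the authors' quantile-normalized values on the log2 scale, from 5.56 to 13.80. No background subtraction is visible in them. A second table with 30 columns of signals and detection p-values under sample numbers not tied to an age was not used.

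Gene symbols came from the annotation of the platform (20984 with 1 symbol, 1 with several, 3628 with none here; 20968 matched by Entrez number, 0 symbols changed). The filter kept 13074 probes whose mean in 1 or more ages exceeded the overall median (6.22 log2, or 74.5 as an intensity), and the brightest probe stood for each of 9531 genes. The ages were compared with limma 3.58.1 in R 4.3.3 over all 15 arrays, with Benjamini-Hochberg adjustment at 0.05 for each comparison. In data simulated on PN7d vs E16d (9531 genes), independent noise was used and 67, 67 and 66 genes were changed by 1.5-fold, 2-fold and 4-fold. Of these, 92.5%, 100% and 100% were called, with 5.8% of calls false. Far more genes were called in the real comparison and smaller changes were not simulated, so these rates need not hold there. Pair differences were compared by the exact two-sided permutation test over 252 splits of 5 against 5 arrays (scipy 1.17.1), adjusted over 9 tests. A gene at or under that median on all 5 arrays of the dimmer age is given as a bound against it.

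Values on each array are given for the catalytic and PA28 subunits and for the 3 largest increases and 3 largest decreases past the test in each comparison; of each list, the 2 largest in either direction at PN7d vs E16d and all proteasome partners may be named. Psmc1, Psmd3, Psmd8 and genes named for not passing the test fall outside this rule. Members and lists were chosen with earlier results of these data known. Promoters came from RefSeq (GRCm38.p6), and 4 motifs were searched on both strands. Alternatives covered the filter, probes, variance model, arrays, replicate block, the methods' t-test, background, scaling, brown fat level (Ucp1, Cidea, Cox8b and Adipoq averaged as intensities on each array) and leaving out each array. Raising Psmb8 to the median of all values in the pair differences was added after seeing the data. Figures used matplotlib 3.10.9 in Python 3.11.15.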

Additional observations from a re-analysis of the deposited data

Results flagged for a closer look

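In 3 of 57 sets of 5 arrays (19 genes at 3 ages), 1 array lay far from the other 4, with a gap over 0.71 of the whole range, and chance gives about 1 in 20. Psmb5 at E16d measured 10.08 log2 on replicate 1 and 10.18 to 10.19 on the other arrays. Psme2 at E16d measured 8.45 log2 on replicate 2 and 8.62 to 8.69 on the others. Psmd3 at PN7d measured 12.84 log2 on replicate 4 and 12.43 to 12.50 on the others, and without that array Psmd3 was not called at PN7d against E16d.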

How the results depend on the processing

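The members' medians kept their direction in all 3 comparisons under every alternative run, and their counts stayed within 1.5 times of those given, with the exceptions named here. The count of higher members at PN7d vs PN1d was 2 with the filter at the upper quartile, which tested 35 members, against 4, and the median at PN7d vs E16d was -0.36 with the brown fat level as a covariate. Leaving out 1 array at a time gave 1 to 2 higher and 21 to 26 lower members at PN1d vs E16d. It gave 5 to 6 and 31 to 33 at PN7d vs E16d, and 4 to 5 and 8 to 15 at PN7d vs PN1d. Of all 9531 genes tested, 4055 to 4233, 5884 to 6132 and 3927 to 4337 were then called in either direction in these comparisons. The second higher gene at PN1d, Psmd8, appeared without E16d replicate 3 or 4. The shift of Psmb10 minus Psmb7 at PN1d vs E16d was 0.089 (adjusted p = 0.54) with the other probe of Psmb7; the cause was not tested. With Psmb8 raised to the median of all values, chosen after seeing the data, the shift of Psmb8 minus Psmb5 at PN7d vs PN1d was 0.36 (adjusted p = 0.0536).

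Over all genes, same-numbered arrays of 2 ages correlated from -0.227 to 0.21 in their deviations. Such a correlation cannot decide on pairing in single members. Psmc1 was high on replicates 1 and 2 and low on replicates 4 and 5 at each age. Psma7 was higher on replicates 1 and 2 than on the others at each age. The cause was not tested. With the replicate number as a block, 1 member was higher and 27 lower at PN1d vs E16d, 7 and 33 at PN7d vs E16d, and 4 and 14 at PN7d vs PN1d. With that block 4450, 6185 and 4335 of all 9531 genes tested were called in either direction in these comparisons.

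Of 1179 values of named genes under an alternative, 1122 kept direction and side of the threshold, 28 lost and 13 gained the call, and 16 turned direction, none of them called in either setting. Those of PN1d vs E16d were Psmb10 (-0.037 with mean probes, -0.091 with the dimmest probe, -0.03 to 0.071 without 1 array), Psme1 (0.079 with mean probes, 0.21 with the dimmest probe), Psmb9 (-0.013 with centred arrays, -0.024 to 0.038 without 1 array), and, without 1 array, Psme4 (-0.054 to 0.0056) and Psmd3 (-0.0057 to 0.044). Psmb1 at PN7d vs PN1d ranged from -0.043 to 0.18 without 1 array. Dim probes such as those of Psmb8 and Psmd2 give bounds only.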
